A study of Saccharomyces cerevisiae with 36 samples.

Results

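The genes examined here encode the proteins of the large subunit of the cytosolic ribosome of the budding yeast Saccharomyces cerevisiae, followed through 3 rounds of the yeast metabolic cycle. Members were taken by gene symbol (RPL with a number, or RPP0, RPP1 and RPP2, with or without a closing A or B) from probe sets that the platform annotation gives to 1 gene, with the brightest probe set kept for each gene. The rule found 48 of 5656 measured genes. RPP1 is known as a subunit of ribonuclease P, a tRNA-processing enzyme, and not of the ribosome, so it is given apart and the counts below cover the other 47 genes. Genes that are read only by probe sets shared between paralogues could not be followed singly and are not among them. Unmarked probe sets read 33 of the 47. The other 14 rest on probe sets whose name carries _f_ or _i_, Affymetrix marks of probes that may match related transcripts or that form an incomplete set.

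The large subunit joins amino acids into protein. Its ribosomal RNA holds the catalytic centre, and its proteins fold that RNA, line the tunnel through which the new chain leaves, bridge to the small subunit and build the stalk that brings elongation factors to the ribosome. Yeast carries many of these genes as a pair of paralogues, A and B, left from an old duplication of the genome, and the members of a pair often differ by few residues. Their transcription depends on Rap1, on Fhl1 with its co-activator Ifh1 or co-repressor Crf1, on Sfp1 and on Hmo1, and it follows nutrient signals through the TOR and protein kinase A pathways. In oscillating continuous cultures, ribosomal protein transcripts are known to be highest in the oxygen-consuming phase.

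RNA from a continuous culture was measured on 36 Affymetrix arrays, with 12 intervals of about 25 min in each of 3 successive cycles and 1 array per interval. Arrays at the same position of the 3 cycles form a group of 3, so there are 12 groups. The labels name no genotype, treatment, strain or separate cultures, and p-values therefore measure only the spread between these arrays. Values are probe-set intensities as multiples of the median of their array. They compare a gene with itself across arrays and not the amounts of different genes. Because every value is relative to its array, less of a transcript per cell and more of all the others cannot be told apart. Bacterial hybridisation controls, read by 9 probe sets, swung by 0.53 log2 with a fitted peak at position 3.45. Relative to their mean they stood at 0.43 ± 0.10 log2 (SD, n = 3 cycles) at position 3 and at -0.34 ± 0.70 at position 10. At positions 8 and 9 they stood at -0.04 ± 0.45 and 0.03 ± 0.50, near 0 only as means over cycles. Probe sets for 18S and 25S ribosomal RNA swung by 0.20 to 0.94 log2 with peaks at differing positions. The part of these shifts in the results was not tested, apart from the rescaling to the hybridisation controls given below.

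All 47 large-subunit genes followed the cycle, and they did so together. Each had a fitted peak between positions 8.25 and 9.63, with a median of 9.05, and 43 lay within 0.5 intervals of the peak of their mean course. Of the 4455 genes called in the whole table, 531 lay in that window. The window is centred on these same 47 genes, so this comparison is a description and lends no separate support. A gene was called where a wave of 12 intervals improved its limma fit (moderated F, adjusted p under 0.05). Of all genes 78.8% were called, so a call by itself does not set these genes apart. The mean of the 47 genes peaked at position 9.05 ± 0.19 (SD, n = 3 cycles) and swung by 1.06 ± 0.16 log2 between fitted peak and trough. The 33 small-subunit genes read the same way peaked at position 9.13 ± 0.25 and swung by 1.01 ± 0.15 log2. Both lists are read on the same arrays, and in each of the 3 cycles the large subunit peaked earlier and swung more, with mean differences of -0.07 ± 0.06 intervals and 0.05 ± 0.04 log2 (SD, n = 3). An exact two-sided sign-flip permutation test gave p = 0.25 for either, the smallest that 3 cycles allow, so it cannot decide whether the lists differ. In cycle 3 the peaks were nearly the same, at position 8.884 for the large and 8.887 for the small subunit. The order of large and small subunit did not hold throughout when the large subunit alone was restricted to unmarked probe sets. The 33 large-subunit genes with unmarked probe sets swung by 1.10, 0.76 and 0.91 log2 in cycles 1, 2 and 3. The small subunit, not restricted in this way, swung by 1.18, 0.90 and 0.96. Its course on unmarked probe sets was not computed, so whether the order depends on the probe sets was not tested. In cycle 3 the unmarked large-subunit genes also peaked later, at position 8.94 against 8.89.

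**Figure D1:**
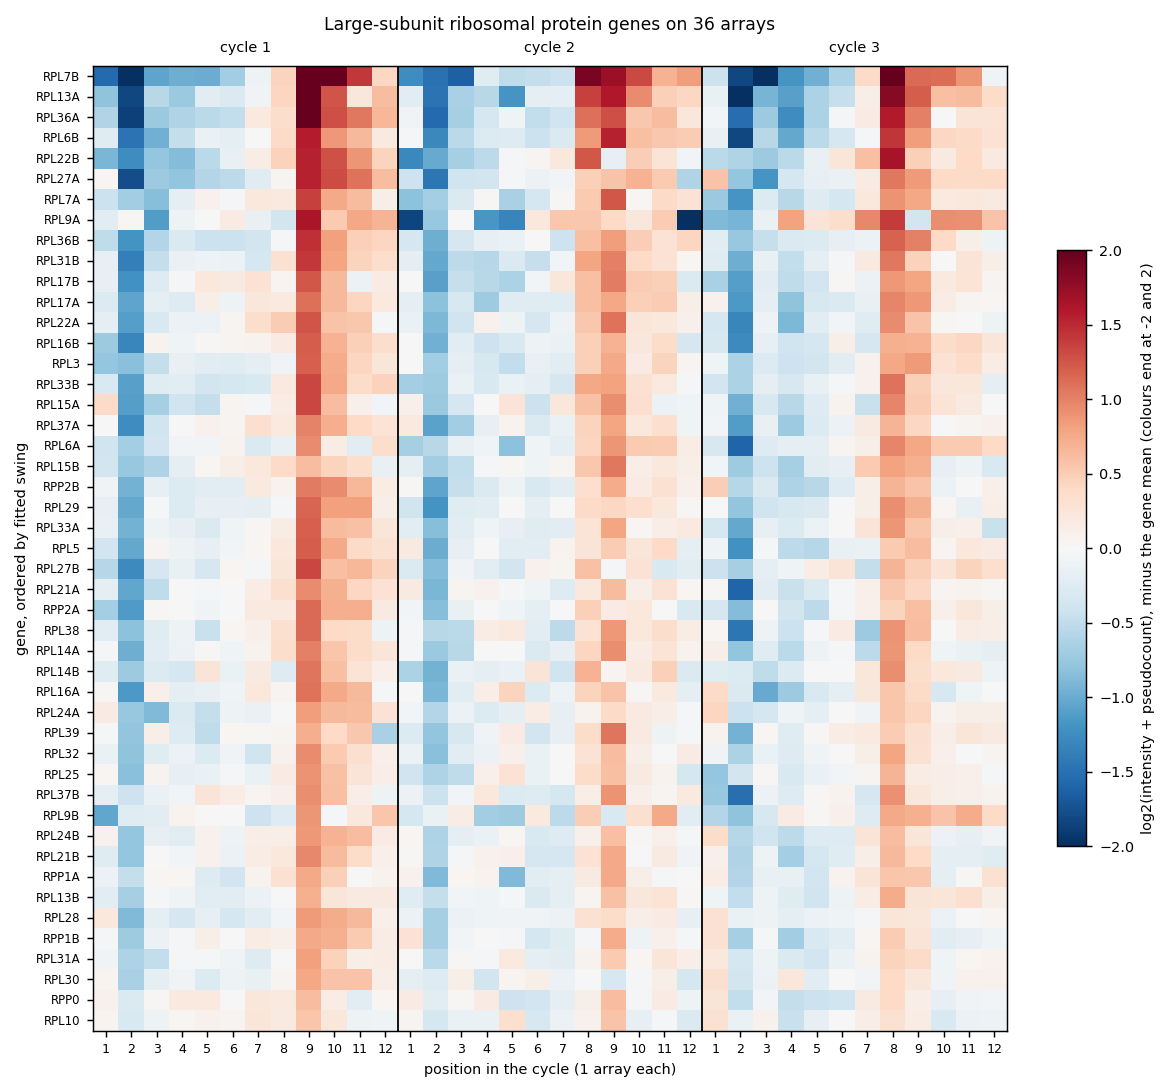
Each row is a large-subunit gene and each column an array, grouped by cycle and ordered by position; colour is log2(intensity + pseudocount) minus the mean of the gene, with red high and blue low. A column of high values stands at position 9 of cycle 1, at positions 8 and 9 of cycles 2 and 3, and a column of low values at position 2 of each cycle.

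The highest and lowest arrays stood at nearly fixed positions. Position 9 had the highest mean of 3 arrays in 43 genes, and position 2 the lowest in 45. All 3 arrays of position 9 lay above all 3 of position 2 in 44 of 47 genes, against 23.9% of all genes. The exceptions were RPL30, RPL9A and RPL9B. Positions 9 and 2 are the high and low extremes of these same genes, whereas other genes can have theirs elsewhere. This count, and the same comparison for single genes below, is therefore a description and lends no separate support. The mean intensity at position 9 was 3.12 times that at position 2 in the median gene, with a range from 1.63 for RPL10 to 17.3 for RPL7B. Between position 1 and position 2 the median gene went to 0.614 of its value in cycle 1, to 0.647 in cycle 2 and to 0.600 in cycle 3. Position 2 was above position 1 in 2, 5 and 1 of the 47 genes. At position 3 the median gene was back at 1.56, 1.46 and 1.42 times its position 2 value. From position 3 to position 7 the median over the genes stayed between -0.44 and 0.11 log2 of the gene means.

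The highest arrays of these genes came later in cycle 1 than in cycle 3. In cycle 1 all 47 genes had their highest array at position 9, where the median gene stood at 1.97 times its position 8 value. In cycle 2, 38 genes were highest at position 9 and 5 at position 8. In cycle 3, 43 were highest at position 8 and 3 at position 9. The ratio of position 9 to position 8 in the median gene was accordingly 1.25 in cycle 2 and 0.861 in cycle 3. The 5 genes already highest at position 8 in cycle 2 were RPL7B, RPL14B, RPL22B, RPL27B and RPP2A. RPL22B stood at 16.1 at position 8 of that cycle and at 6.09 at position 9, while its paralogue RPL22A went from 46.2 to 67.5. RPL27B went from 25.4 to 16.4 over the same step, and its paralogue RPL27A from 20.0 to 21.4. The 3 genes highest at position 9 in cycle 3 were RPL3, RPL5 and RPP2A. The mean course of the small-subunit genes was likewise highest at position 9 in cycles 1 and 2 and at position 8 in cycle 3. Matching counts over all genes were not computed, so these shifts cannot be called particular to the large subunit. With 1 array for each position of a cycle, these shifts have no replicate. The hybridisation controls also varied between cycles at positions 8 and 9, and the part of this in the shifts was not tested.

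**Figure D2:**
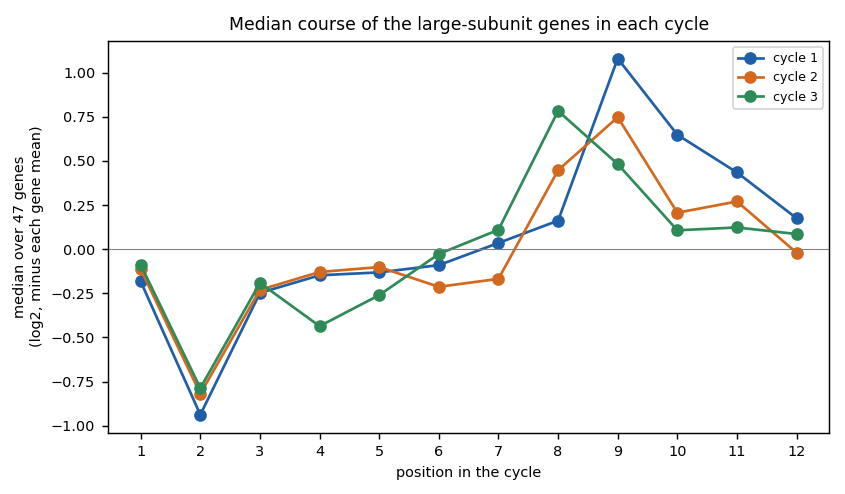
Median over the 47 genes of log2 intensity minus the gene mean (y axis) against position (x axis), with a line for each cycle. The top lies at position 9 in cycles 1 and 2 and at position 8 in cycle 3, and all 3 lines have their bottom at position 2.

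Fitted peaks were later in cycle 1 than in cycle 3 for 36 of 47 genes and later than in cycle 2 for 25. Fitted swings were larger in cycle 1 than in cycle 2 for 39 genes and than in cycle 3 for 37, with medians of 1.17, 0.86 and 1.03 log2 in cycles 1, 2 and 3. Over all genes the medians were 0.90, 0.79 and 0.82. Matching counts of later peaks and larger swings over all genes were not computed. No large-subunit gene passed limma's test for a swing or peak that differed between cycles, against 0.0354% of all genes. An unadjusted p under 0.05 was found for 4 of the 47 genes (8.51%) and for 4.61% of all genes. These were RPL28, RPL30, RPL22B and RPL24A (adjusted p = 1.00 for each). RPL30 swung by 0.89 log2 in cycle 1, 0.15 in cycle 2 and 0.24 in cycle 3, and RPL24A by 1.32, 0.53 and 0.57. RPL28 swung by 1.10, 0.56 and 0.24 log2, and RPL22B by 2.32, 1.53 and 1.60. The absence of a call does not show that the swings were equal. No large-subunit gene passed limma's test for a level that differed between cycles, against 0.053% of all genes (0.0177% with cycle 3 above cycle 1). Here 2 of the 47 genes (4.26%) had an unadjusted p under 0.05, and 5.73% of all genes did. The 2 were RPL9A (adjusted p = 0.793) and RPL22A (adjusted p = 0.849). RPL9A stood at -0.63 log2 in cycle 2 and 0.17 in cycle 3 relative to cycle 1. The median of cycle 3 minus cycle 1 was -0.08 log2 over the 47 genes and -0.02 over all genes.

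No large-subunit gene passed limma's test for an added wave with a period of 6 intervals, against 12.4% of all genes. At an unadjusted p under 0.05 there were 11 of the 47 genes (23.4%), and 27.4% of all genes. The lowest adjusted p was 0.0653 for RPL33B, whose 6-interval swing was 0.46 ± 0.14 log2 (SE). RPL7B had the largest 6-interval swing, 0.79 ± 0.28 log2 (adjusted p = 0.131), followed by RPL36B at 0.49 ± 0.15 and RPL16B at 0.48 ± 0.15. After quantile normalisation 5 genes passed, against 13.2% of all genes, and 1 did without cycle 3.

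The size of the swing differed widely between genes that share a particle. It ran from 0.31 to 3.41 log2 with a median of 0.97, against a median of 0.77 over all genes. A call with a swing of at least 2-fold was made for 22 of 47 genes (46.8%), against 38.1% of all genes, and with a pseudocount of 0.5 for 21 of 47 (44.7%), against 26.9% of all genes. Of the 33 genes whose brightest probe set is unmarked, 12 (36.4%) had such a call. The share of all genes on unmarked probe sets was 38.2%. Swings of at least 4-fold were called for 3 genes (6.38%), against 10.6% of all genes. Rescaling each array to the hybridisation controls gave 44 genes with at least 2-fold, against 44.6% of all genes. All 47 kept a call and a peak within 3 intervals under that scaling and under quantile normalisation.

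**Figure D3:**
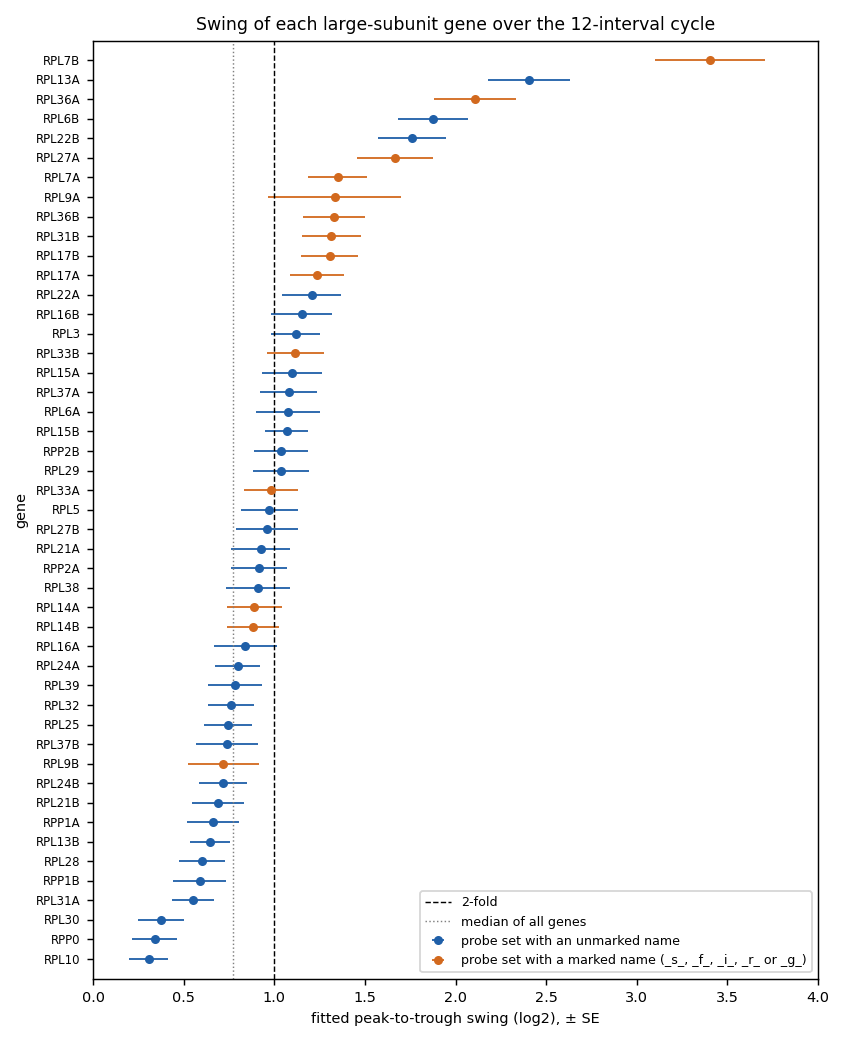
Fitted peak-to-trough swing in log2 (x axis) with its SE for each large-subunit gene (y axis), blue for unmarked and orange for marked probe sets; the dashed line is 2-fold and the dotted line the median of all genes. The genes run from RPL10 at 0.31 to RPL7B at 3.41.

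RPL7B, which encodes an rRNA-binding protein, had the largest swing, 3.41 ± 0.30 log2 (SE, adjusted p = 1.19e-11). Its intensity at position 2 was 0.720, 1.19 and 0.934 in cycles 1, 2 and 3, and it reached 30.3 at position 9 of cycle 1, 12.9 at position 8 of cycle 2 and 28.3 at position 8 of cycle 3. The highest array of cycle 1 was 42.1 times the lowest. These values come from a marked probe set, and a second marked probe set for RPL7B gave 1.75 ± 0.28. RPL13A came next at 2.40 ± 0.22 (adjusted p = 3.86e-11), from an unmarked probe set. It stood at 2.94 ± 0.58 (SD, n = 3) at position 2 and at 32.5 ± 10.4 at position 9, with no overlap between these groups. RPL36A swung by 2.11 ± 0.23 log2 and went from 6.64 ± 0.84 at position 2 to 59.7 ± 23.4 at position 9. RPL6B swung by 1.88 ± 0.19 and RPL22B by 1.76 ± 0.19, both from unmarked probe sets. RPL27A swung by 1.67 ± 0.21 on a marked probe set and by 0.58 ± 0.17 on another marked one.

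The smallest swings belonged to RPL10, RPP0, RPL30 and RPL31A. RPL10, a protein added to the subunit in the cytoplasm as a late step of its maturation, swung by 0.31 ± 0.11 log2 (adjusted p = 0.0373). Its lowest position mean was 39.0 ± 3.1 at position 2 and its highest 63.5 ± 10.0 at position 9, and these arrays did not overlap. RPP0, the base of the stalk, swung by 0.34 ± 0.12 (adjusted p = 0.0435), between 31.4 ± 3.0 at position 2 and 54.7 ± 10.1 at position 9. RPL30, known to bind its own transcript and hold back its splicing, swung by 0.38 ± 0.13 (adjusted p = 0.0269). In cycle 1 it stood at 36.0 at position 9 and at 13.4 at position 2, whereas in cycle 2 it stood at 16.8 and 17.6. RPL31A, a protein at the mouth of the exit tunnel, swung by 0.55 ± 0.12 (adjusted p = 0.000296). RPL10 and RPP0 lost their calls when any cycle was left out, with swings of 0.23 to 0.38 log2 for RPL10 and 0.28 to 0.42 for RPP0. RPL30 lost its call without cycle 1, where its swing was 0.15, and without cycle 3, where it was 0.44. RPP1B lost its call without cycle 1 (adjusted p = 0.0669) and RPL9B without cycle 3 (adjusted p = 0.115). Without position 2, RPL10, RPL30 and RPP0 were not called, and 13 genes had a called swing of at least 2-fold. Without positions 8 and 9 that count was 12, and 40 of 47 genes were called. The shares of all genes with cycles or positions left out were not computed, so these losses cannot be set against them.

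Few genes stood away from the common time. RPL10 had the earliest fitted peak, at position 8.25, followed by RPL9A at 8.35. RPL28, a protein in which changes give cycloheximide resistance, had the latest at position 9.63, with RPL24A at 9.60. RPL10 has a small swing and RPL9A a noisy course, with 0.395 at position 12 of cycle 2 and 11.8 at position 9 of cycle 1. RPL28 was still at 39.2 at position 11 of cycle 1, against 45.2 at position 9, but at 25.2 at position 11 of cycle 3.

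The stalk genes moved modestly. RPP0 anchors the stalk to the rRNA, and RPP1A, RPP1B, RPP2A and RPP2B encode the acidic proteins that bind it as dimers and recruit elongation factors. All 5 were called, with swings from 0.34 to 1.04 log2 and a median of 0.66, and only RPP2B passed 2-fold. RPP1A swung by 0.66 ± 0.14 log2 and RPP1B by 0.59 ± 0.15, with peaks at positions 9.30 and 9.35. RPP2A swung by 0.92 ± 0.15 with a peak at position 8.81, and RPP2B by 1.04 ± 0.15 with a peak at position 9.47. RPP2B stood at 16.9, 15.7 and 21.9 at position 2 and at 67.4, 54.4 and 48.3 at position 9 in cycles 1, 2 and 3. A second, also unmarked probe set gave RPP1B a swing of 0.88 ± 0.14.

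The 11 genes with no paralogue among the members had a median swing of 0.76 log2, from 0.31 to 1.12, and the 36 genes in pairs had a median of 1.07. A swing of at least 2-fold was called in 2 of the 11 (18.2%) and in 20 of the 36 (55.6%), against 38.1% of all genes. Of the 36, 14 were read from marked probe sets and of the 11 none, and the part of this in the difference was not tested. RPL3, which reaches into the peptidyl transferase centre, led the unpaired genes with 1.12 ± 0.14 log2 and went from 9.56 ± 0.69 at position 2 to 30.6 ± 5.1 at position 9. RPL29 swung by 1.04 ± 0.16. RPL5, which binds 5S ribosomal RNA, swung by 0.97 ± 0.16. Over cycles 1, 2 and 3 it read 16.0, 16.5 and 14.1 at position 2, then 76.0, 46.8 and 50.3 at position 9, without overlap. RPL38 swung by 0.91 ± 0.18. Of the proteins of the exit tunnel, RPL39 swung by 0.78 ± 0.15 and RPL25, a docking site for the signal recognition particle, by 0.74 ± 0.13. RPL32 swung by 0.76 ± 0.13 and RPL28 by 0.60 ± 0.13.

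The swing was smaller on brighter probe sets. Over the 47 genes the Spearman correlation of mean log2 intensity with swing was -0.58, and over the 33 genes with unmarked probe sets it was -0.59, whereas over all 5656 genes it was 0.14. Genes are not independent replicates, and the probe sets share the same arrays. The 12 brightest genes swung by a median of 0.73 log2 and 3 of them by at least 2-fold, and the 12 dimmest by 1.22 with 10 at 2-fold or more. RPL10 had a mean intensity of 47.4 and RPP0 of 40.2, while RPL7B had 5.66 and RPL13A 12.6. RPL22A was bright at 34.1 and still swung by 1.21 ± 0.16. The part of probe brightness in the order of the swings was not tested.

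**Figure D4:**
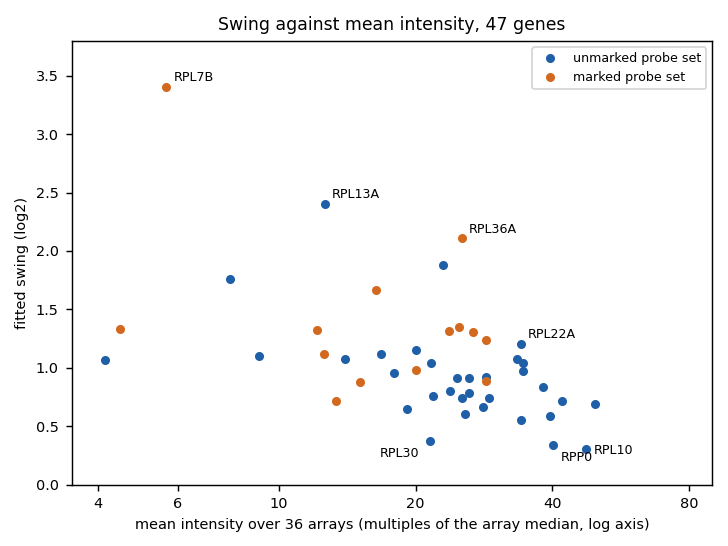
Fitted swing in log2 (y axis) against mean intensity over 36 arrays on a log axis (x axis), 1 point per large-subunit gene, blue for unmarked and orange for marked probe sets. RPL7B and RPL13A stand at the upper left, and RPL10 and RPP0 at the lower right.

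Paralogues were compared within each array, as log2 of A minus log2 of B, which sets their courses and not their levels against each other. The swing of this A-minus-B course, called the ratio swing below, takes in differences of both size and time, and so it need not equal the swing of A minus that of B. Both copies could be followed in 18 pairs. The course differed in 7 of them (38.9%) by limma's moderated F test with adjustment over all 33 A/B pairs of the table. Of all 33 pairs 48.5% were called, and of the 15 pairs outside the large subunit 60%. In 3 of the 7 pairs A had the larger swing and in 4 B had. For RPL27 the direction turned with the other RPL27A probe set described below, and there the pair was not called. RPP2 is counted for B on close swings, 0.92 ± 0.15 log2 (SE) for A and 1.04 ± 0.15 for B. Of the 10 pairs read from unmarked probe sets on both sides 3 were called, and 4 of the other 8.

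**Figure D5:**
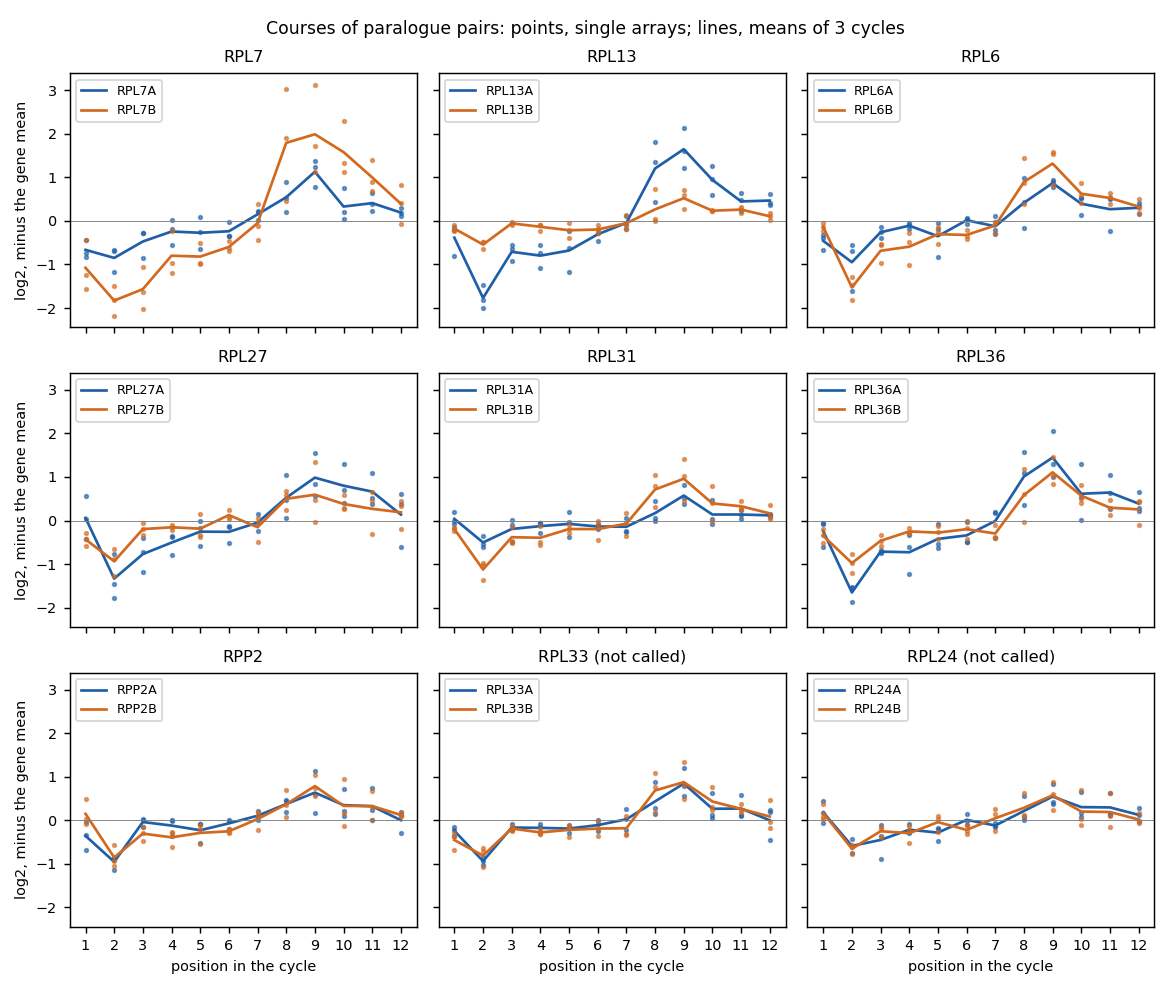
Log2 intensity minus the gene mean (y axis) against position (x axis) for the 7 pairs whose courses were called different and for the 2 closest pairs, RPL33 and RPL24; points are single arrays and lines the means of 3 cycles, blue for A and orange for B. RPL7B and RPL13A depart most from their paralogues, at positions 2 and 8 to 10, and RPL7B also at position 3.

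RPL13 had the lowest p among the large-subunit pairs, from unmarked probe sets on both sides. RPL13A stood at 2.80, 3.57 and 2.45 at position 2 and at 43.8, 30.4 and 23.3 at position 9 in cycles 1, 2 and 3. RPL13B stood at 11.9, 13.4 and 13.3 at position 2 and at 30.8, 28.1 and 22.5 at position 9. The ratio of these position means was 11.1 for A and 2.11 for B, and for neither gene did the groups overlap. The ratio swing was 1.76 ± 0.17 log2 (SE, adjusted p = 4.7e-11), and 1.72, 1.79 and 1.79 within the 3 cycles. RPL13A peaked at position 9.22 and RPL13B at 9.39.

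RPL7 had the largest ratio swing, 2.07 ± 0.25 log2 (adjusted p = 1.15e-08), with 2.38, 1.71 and 2.17 within cycles. RPL7A swung by 1.35 ± 0.16 and RPL7B by 3.41 ± 0.30. RPL7A stood at 14.1, 14.3 and 10.1 at position 2 and at 59.1, 54.2 and 39.1 at position 9. Both were read from marked probe sets, and with the dimmest probe set of each gene the ratio swing was 0.97 log2 (adjusted p = 0.00192). That probe set of RPL7A, an unmarked one, had a mean intensity of 0.203, far below the 24.9 of the set used. In RPL6, from unmarked probe sets, B swung by 1.88 ± 0.19 log2 and A by 1.07 ± 0.18, a ratio swing of 0.81 ± 0.16 (adjusted p = 0.000211). It was 1.32 log2 within cycle 1 but 0.57 within cycles 2 and 3, and without cycle 1 the adjusted p was 0.0631.

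The next 3 pairs involved marked probe sets. RPL31B, of a pair that lies beside the exit tunnel, swung by 1.31 ± 0.16 log2 against 0.55 ± 0.12 for RPL31A, a ratio swing of 0.78 ± 0.12 (adjusted p = 1.04e-06). Other probe sets gave RPL31B 1.30 and 1.72 and RPL31A 0.81, so B remained the larger on each. RPL36A swung by 2.11 ± 0.23 against 1.33 ± 0.17 for RPL36B, a ratio swing of 0.78 ± 0.14 (adjusted p = 5.37e-05) that was 1.00, 0.65 and 0.69 within cycles. RPL27A swung by 1.67 ± 0.21 against 0.96 ± 0.17 for RPL27B, a ratio swing of 0.80 ± 0.17 (adjusted p = 0.000504). This direction depends on the probe set: with the other RPL27A probe set, at 0.58 log2, RPL27B was the gene with the larger swing and the ratio swing was 0.44 (adjusted p = 0.054). RPP2, in the stalk, was called narrowly (ratio swing 0.36 ± 0.12 log2, adjusted p = 0.0491), with peaks at position 8.81 for A and 9.47 for B. With cycle as a replicate block the adjusted p of RPP2 was 0.0545, without cycle 1 it was 0.232 and without cycle 2 it was 0.242.

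The other 11 pairs were not called. RPL9 and RPL22 had unadjusted p-values of 0.0402 and 0.0468 (adjusted p = 0.0737 and 0.0812). RPL22B swung by 1.76 ± 0.19 log2 and RPL22A by 1.21 ± 0.16, and the ratio swing of 0.56 ± 0.22 peaked at positions 4.02, 1.12 and 1.79 in the 3 cycles. It passed without position 2 (adjusted p = 0.0242) and without positions 8 and 9 (adjusted p = 0.0114). RPL9 passed without cycle 1 (adjusted p = 0.0292) and RPL37 without cycle 3 (adjusted p = 0.0331). RPL17, whose B gene has served as a marker of the oxidative phase, had a ratio swing of 0.27 ± 0.12 log2 (adjusted p = 0.12). It was 1.36 log2 (adjusted p = 2.77e-05) with the dimmest probe sets, where RPL17B swung by 2.38 ± 0.26 and RPL17A by 1.03 ± 0.17. RPL37, RPL16, RPL15, RPL21, RPL14, RPL33, RPL24 and RPP1A with RPP1B had ratio swings between 0.07 and 0.37 log2.

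The closest pairs were RPL33, RPL24, RPL17 and RPP1A with RPP1B, with root-mean-square distances between the mean courses of 0.136, 0.138, 0.149 and 0.167 log2. The ratio swing was 0.16 ± 0.10 log2 for RPL33 (adjusted p = 0.383), 0.15 ± 0.12 for RPL24 (adjusted p = 0.526) and 0.07 ± 0.13 for RPP1A with RPP1B (adjusted p = 0.851). Their not being called does not show that the courses are equal. The ratio swing of RPL17, given above, was 0.27 ± 0.12 log2 on the brightest probe sets but 1.36 on the dimmest. Its place among the closest pairs therefore depends on the probe set. The 18 paralogue pairs had a median distance of 0.241 log2, and all 1081 pairs of members had a median of 0.236. In none of the 36 paired genes was the paralogue the member with the nearest course, and in 5 it was among the 5 nearest. RPL13A lay nearest to RPL36A (0.167 log2), RPL13B to RPL31A (0.105) and RPL6B to RPL36A (0.0986). The genes share arrays, and these distances carry no test.

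Chromosomal neighbours among the members were few. RPL24A and RPL30 lie next to each other and are read away from each other, and their courses were 0.181 log2 apart, with swings of 0.80 and 0.38. RPL13A and RPP1A lie next to each other and are read towards each other. Their courses were 0.657 log2 apart, with swings of 2.40 and 0.66.

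The genes that assemble the large subunit had a larger median swing and an earlier median peak than its structural genes, a difference described here without a test. All 30 assembly factors and dedicated chaperones were called, 26 with at least 2-fold, against 38.1% of all genes, with a median swing of 1.98 log2 against 0.97 for the 47 structural genes and 0.77 for all genes. Their median peak lay at position 8.45 against 9.05. The list holds YAR1, known as the chaperone of a small-subunit protein. Without it 25 of 29 had at least 2-fold and the medians were 1.99 log2 and position 8.46. ARX1, a nuclear export factor of the subunit, swung by 2.73 ± 0.40 log2 and NOG2, a GTPase of its assembly, by 2.71 ± 0.39, while REH1, a late cytoplasmic factor, swung by 0.32 ± 0.12. A chaperone and the protein it is known to carry could be set side by side in 3 cases, picked for this known partnership. RRB1 swung by 2.35 ± 0.38 log2 and its client RPL3 by 1.12 ± 0.14, with peaks at positions 8.75 and 9.38. SYO1 swung by 2.25 ± 0.36 and its client RPL5 by 0.97 ± 0.16, with peaks at 8.32 and 9.20. SQT1 swung by 1.91 ± 0.30 and its client RPL10 by 0.31 ± 0.11, with peaks at 8.79 and 8.25.

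Regulators of ribosomal protein transcription did not share a time. Of 15 listed genes 12 were called (80%, against 78.8% of all genes), 3 with at least 2-fold (20%, against 38.1%), with a median swing of 0.54 log2. CRF1, the co-repressor at these promoters, swung by 4.08 ± 0.31 log2 with its peak at position 4.34. UTP22, a processome protein that also binds Ifh1, swung by 2.32 ± 0.27 with its peak at position 8.80. The co-activator IFH1, the remaining gene with at least 2-fold, swung by 1.32 ± 0.38 with its peak at position 8.10. SCH9, a kinase of the TOR pathway, was not called (swing 0.18 ± 0.17), and neither were FHL1 (0.22 ± 0.15) and TOR1 (0.42 ± 0.18). Small-subunit genes were called in 32 of 33, with a median swing of 1.01 log2. Large-subunit genes of the mitochondrial ribosome were called in 34 of 34, with a median swing of 2.23 log2 and a median peak at position 11.7.

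RPP1, the ribonuclease P gene that shares the symbol pattern, was dim and peaked at the same time. It swung by 0.97 ± 0.23 log2 with its peak at position 9.34 (adjusted p = 0.00125). It stood at 4.63 at position 9 of cycle 1, and in cycles 2 and 3 at 2.89 and 4.35 at position 8 but 1.02 and 1.40 at position 9.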

How the data were processed

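The deposited intensity values are per probe set and linear, and from the values the median of each array is 1; the sources used here do not give how the authors summarised probes. Of 9335 probe sets 6504 had 1 symbol, giving 5656 genes, each read from its brightest probe set, and symbols were updated through the R64 gene table. Values were taken as log2(intensity + 0.0516), the pseudocount being the 10th percentile of positive values, so folds of dim genes are understated. None of the members' values was 0.

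Tests used R 4.3.3 with limma 3.58.1 and Benjamini-Hochberg adjustment over all 5656 genes or all 33 A/B pairs; tables and plots used Python 3.11.15. Swing means the height of the fitted wave from trough to peak, and it is never negative. Cycle numbers come from the labels. Deviations from the position means correlated between arrays of 1 cycle with a median r of 0.017 (198 array pairs, from -0.68 to 0.47). A median near 0 does not show that arrays of 1 cycle are independent. The members, lists and tests were chosen with earlier results of these data known. Named members were the 6 largest and 4 smallest swings, the 3 peaks farthest from the mean course, the stalk and unpaired genes, the called and the 4 closest pairs, and the genes with the lowest p for differences between cycles or for the second wave. Alternatives covered scaling, pseudocount, probe sets, dim genes, error model, test, cycles and positions. Promoter and protein sequences were not analysed here. The number of arrays limits the precision.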

Additional observations from a re-analysis of the deposited data

How the results depend on the processing

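The call of all 47 genes gave 43 to 45 genes without single cycles, 45 with a 12-level position factor, 34 of 34 on unmarked probe sets, and 47 under quantile normalisation, a pseudocount of 0.5, the dimmest probe sets, no trend, no dim genes and cycle as a replicate block. Of all genes 78.4% were called under quantile normalisation, 78.7% with a pseudocount of 0.5, 77.2% with the dimmest probe sets and 79.5% on unmarked ones. For the other settings in this list the shares of all genes were not computed. The 22 genes called with at least 2-fold became 12 of 34 on unmarked probe sets, where fewer genes were measured, against 38.2% of all genes. They became 19 to 28 without single cycles. In alternatives chosen after the data were seen, they became 44 with scaling to the hybridisation controls, 13 without position 2 and 12 without positions 8 and 9. For cycles and positions left out, the shares of all genes were not computed. The 7 pairs became 2 of 10 on unmarked probe sets, 6 with the replicate block, 9 with the position factor and 6 to 8 without single cycles. The shares of all A/B pairs under these settings were not computed. RPL27 turned its direction on the other probe set (0.44 log2) and was not called there. Second waves were called in 5 genes after quantile normalisation, 1 with the dimmest probe sets, 1 on unmarked ones, 3 with the control scaling and 0 to 1 without single cycles. Swings differed between cycles in 1 gene with the control scaling and in 0 otherwise, and levels in 0 throughout. The mean swing of 1.06 log2 ranged from 0.98 to 1.14 without single cycles and was 1.58 with the control scaling, and the mean peak from 8.95 to 9.14. The cause of these changes was not tested. The design has 3 arrays for each position, and marked probe sets limit 14 genes.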

Other observations

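Probe sets shared by several large-subunit genes were outside the comparisons above. There were 38 of them, for 22 pairs of genes, and 36 were called with limma, against 64.0% of all probe sets; 10 were called with at least 2-fold, against 29.4%. Their swings ran from 0.14 to 1.71 log2 with a median of 0.86, and so their median was below that of the 47 genes read singly. Their fitted peaks ran from position 0.89 to 11.0, a wider range than that of the 47 genes. This range covers called and uncalled probe sets alike. The common time described above therefore holds for the 47 genes and was not shown for every shared probe set.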
